A study of Mus musculus with 12 samples.

Results

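Amino acid transporter genes were followed in bone-marrow-derived macrophages (BMDMs), and were taken as all gene models whose symbol carries the prefix Slc1a, Slc3a, Slc6a, Slc7a, Slc36a, Slc38a or Slc43a with a number. The rule uses names only, and 67 of the 55487 gene models of the deposited table met it. The 4 groups, each of 3 libraries, were LPS-treated KO, LPS-treated WT, untreated KO and untreated WT macrophages. KO stands for RasGEF1b-cKO, that is C57BL/6 mice carrying Rasgef1b-fl/fl and CMVcre, in which Cre under the cytomegalovirus promoter removed exons 7 and 8 of Rasgef1b in all tissues, and WT for C57BL/6 mice without these alleles. Mice were 8 to 12 weeks old. Their marrow was grown into adherent macrophages in serum- and glutamine-containing medium with L929 cell-conditioned medium, and the cells were left untreated or given LPS, the bacterial endotoxin that activates Toll-like receptor 4, at 100 ng/ml for 4 h. The methods describe the 3 libraries of a group as biological replicates from independent RNA samples of such cultures and the comparisons as unpaired, while the labels do not tie a library to a mouse. The methods place the WT mice in another animal facility and do not call them littermates, so genotype and colony cannot be told apart.

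Cells cannot store free amino acids for long, and these carriers decide which of them enter, leave or cross the lysosomal membrane. The Slc7 family holds the cationic transporters, which work alone, and the light chains, which reach the membrane only when bound to a heavy chain of the Slc3 family. The Slc1, Slc6 and Slc38 families mostly use the sodium gradient, Slc36 carriers use protons, and Slc43 carriers let large neutral amino acids run down their own gradient. In activated mouse macrophages arginine uptake feeds nitric oxide synthase 2, and cystine uptake feeds glutathione synthesis.

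Of the 67 genes, 31 reached a mean of 10 normalized counts in at least 1 comparison and could be tested, 26 of them in every comparison. The other 36 were not tested, 10 of them without a single read and 26 with reads but no group mean above 7.43. By family the tested genes number 11 of 16 Slc7a, 6 of 22 Slc6a, 6 of 11 Slc38a, 3 of 7 Slc1a, 2 of 6 Slc36a, 2 of 3 Slc43a and 1 of 2 Slc3a models. The symbol rule also takes in 3 models of other transcripts read from the opposite strand (Slc36a1os, Slc36a3os and Slc6a19os), none of them tested, and the coding gene Slc7a6os, which lies opposite Slc7a6 and is no carrier. The libraries held 19316691 to 24977356 reads in genes, and the 67 genes took 0.249% to 0.270% of them in LPS-treated and 0.322% to 0.362% in untreated libraries, ranges that did not overlap. In replicate 2 of the untreated KO macrophages 5.06% of reads fell on 1 ribosomal RNA model, against at most 0.0874% in the other libraries. Rasgef1b had 3862 and 12084 mean normalized counts in LPS-treated KO and WT macrophages, and 609 and 2072 in untreated ones, with all exons counted and only exons 7 and 8 deleted. Nos2, counted as a check of the LPS treatment, had means of 31969.8 and 43316 in LPS-treated KO and WT macrophages against 21.3 and 14.1 in untreated ones. All 8 macrophage markers were high, and the genes of the T cell, B cell, fibroblast and erythroid lists had group means of at most 13.9 apart from Cd4. The summed dendritic cell list of 4 genes moved with LPS, at 77.6 to 103 and 54.9 to 86.0 in LPS-treated KO and WT libraries against 8.55 to 16.9 and 8.30 to 16.5 in untreated ones, mostly through Xcr1, and its part in the LPS results was not tested.

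The largest carrier pools, compared as normalized counts per kb of exon, were the same with and without LPS in both genotypes. Slc6a6, the taurine transporter, ranked first with 3649 ± 179 per kb in LPS-treated KO and 4291 ± 454 in LPS-treated WT macrophages, against 2654 ± 146 in untreated KO and 2689 ± 54.4 in untreated WT macrophages (SD, n = 3 each). Slc3a2, the heavy chain known as CD98, ranked second with 1797 ± 78.0 and 1685 ± 55.6 per kb in LPS-treated KO and WT macrophages, against 1255 ± 26.9 and 1213 ± 74.2 in untreated ones. Neither overlapped in its replicates with the gene ranked next below it in any group. Below them the order changed with LPS: Slc7a2 held rank 4 per kb in LPS-treated macrophages of both genotypes and rank 21 in untreated ones, while Slc43a2 held ranks 10 and 9 in LPS-treated KO and WT macrophages and rank 3 in untreated ones. Slc38a2 stood at rank 19 with LPS and at rank 11 without it. Neighbours were often not separable, and Slc43a2 and Slc6a8 at ranks 3 and 4 of the untreated groups overlapped in their replicates.

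**Figure D1:**
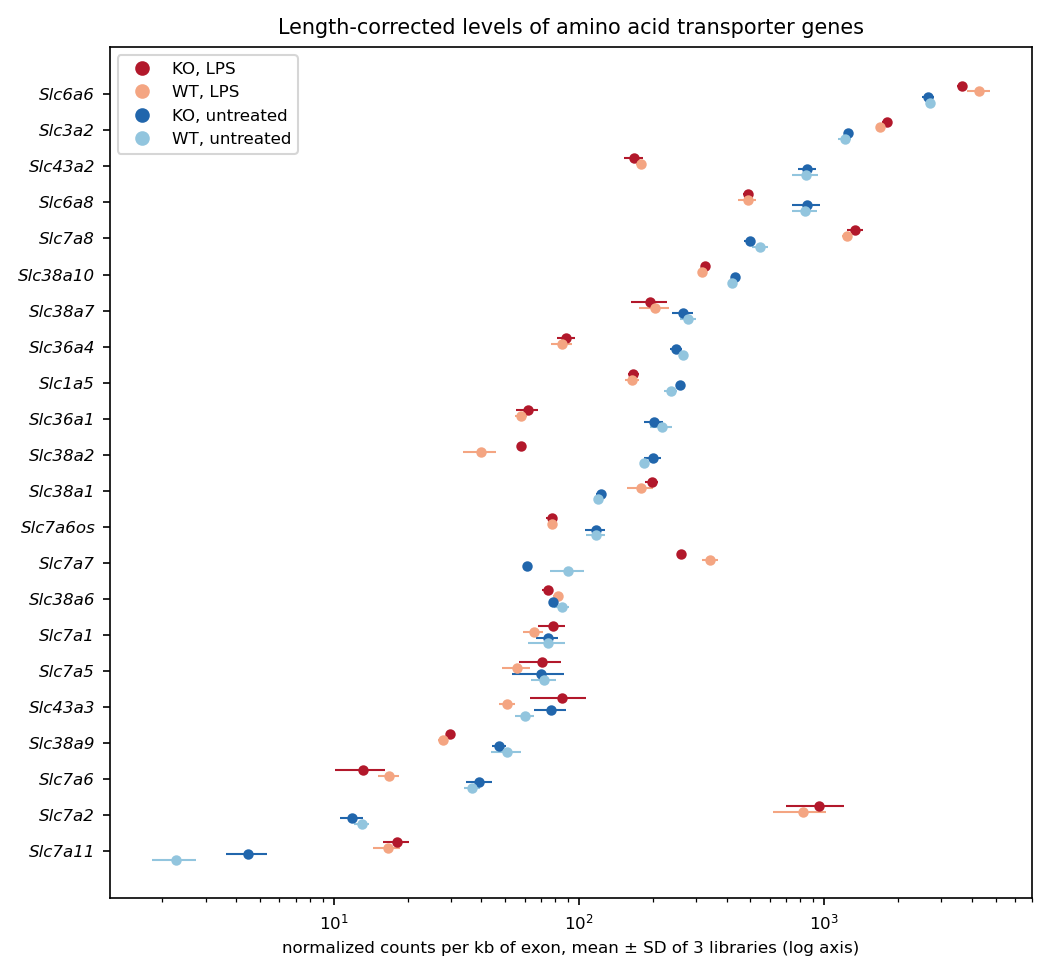
Normalized counts per kb of exon (horizontal log axis, mean ± SD of 3 libraries) for the 22 amino acid transporter genes with at least 10 per kb in 1 group, ordered by the untreated WT level. Colours stand for KO and WT macrophages with LPS (reds) and untreated (blues). Slc6a6 and Slc3a2 lie at the high end in all 4 groups, Slc7a2 moves far to the right with LPS, and Slc43a2, Slc36a4, Slc36a1 and Slc38a2 move to the left.

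The first comparison asked how LPS changed the carriers in each genotype. Of 29 tested genes 13 were called in KO macrophages, 6 higher and 7 lower, and of 28 tested genes 12 were called in WT macrophages, 5 higher and 7 lower. A call needed a Benjamini-Hochberg adjusted p under 0.05 in limma and a fold change of at least 2. By that rule 33.8% of all genes tested were called in KO macrophages and 33.9% in WT macrophages, against 44.8% and 42.9% of the carriers. In KO macrophages 17.3% of all genes were called higher and 16.6% lower, and in WT macrophages 17.1% and 16.9%. At an adjusted p under 0.05 alone, 22 carriers passed in KO and 24 in WT macrophages, beside 72.1% and 73.2% of all genes. LPS-treated and untreated libraries did not overlap for 23 of 29 carriers in KO and 23 of 28 in WT macrophages, beside 76.5% and 76.9% of all genes. The median log2 fold change was -0.16 in KO and -0.39 in WT macrophages for the carriers, and -0.01 and -0.02 for all genes. Some genes passed the filter only through the group where they are high, and Slc6a4 (KO), Slc6a19, Slc1a2 (WT) and Slc7a3 (KO) had a group mean under 10. Among genes with both group means at 10 or more, 11 of 26 carriers were called in each genotype, 4 higher and 7 lower, beside 29.7% of all such genes in KO and 29.9% in WT macrophages. These values rest on the deposited size factors. With libraries scaled instead to equal total reads the median of all genes moved to -0.69 in KO and -0.74 in WT macrophages, and the calls became 5 higher and 13 lower in KO and 4 higher and 15 lower in WT macrophages. Fewer cells and less RNA per cell cannot be told apart in such bulk values.

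**Figure D2:**
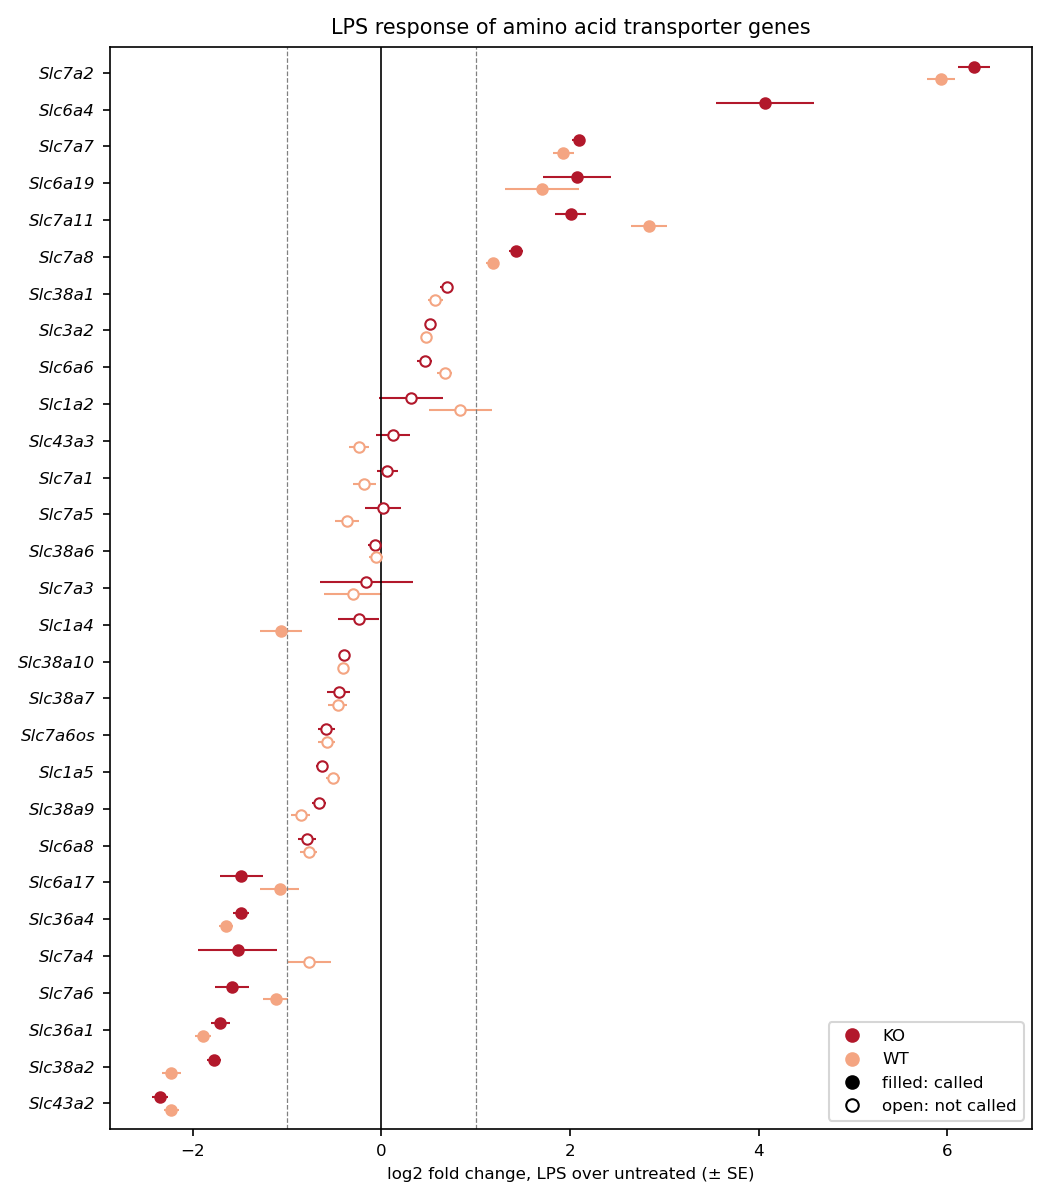
Log2 fold change of LPS-treated over untreated macrophages (horizontal axis, ± SE, n = 3 per group) for each tested amino acid transporter gene, in KO (upper point of each pair) and WT macrophages (lower point). Filled points were called, and dashed lines mark a fold change of 2. Slc7a2 lies far to the right of the other genes, and Slc43a2 and Slc38a2 at the left end, in both genotypes.

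Of the cationic family Slc7a1 to Slc7a4, 1 gene was called higher, and by more than any other carrier tested. Slc7a2 (chr8:40862396-40922308, plus strand, GRCm38), which encodes CAT2, the carrier of arginine, lysine and ornithine, had 6718, 11237 and 8142 normalized counts in LPS-treated KO macrophages and 9535, 6617 and 6190.3 in LPS-treated WT macrophages. Untreated KO macrophages had 98.1, 121 and 106 and untreated WT macrophages 127, 117 and 112. The lowest LPS-treated library lay far above the highest untreated one, while the genotypes overlapped. The rise was 78.0-fold in KO (log2 6.28 ± 0.17 SE, limma adjusted p = 9.58e-09) and 61.1-fold in WT macrophages (log2 5.93 ± 0.15, adjusted p = 1.23e-09). Slc7a1, the CAT1 carrier of the same amino acids, showed no such rise, with means of 899 ± 115 and 753 ± 71.0 in LPS-treated KO and WT macrophages against 860.0 ± 88.1 and 860.0 ± 146 in untreated ones (adjusted p = 0.636 in KO and 0.214 in WT). Slc7a2 thus made up 89.2% to 93.3% and 90.6% to 92.9% of the counts per kb of Slc7a1 to Slc7a4 in LPS-treated KO and WT libraries, against 10.3% to 13.1% and 12.3% to 14.7% in untreated ones. Slc7a3 stayed near the filter, with 4.84 to 19.1 normalized counts per library. Slc7a4, a related protein, averaged 14.9 ± 8.19 and 19.4 ± 2.93 with LPS against 39.9 ± 3.32 and 33.8 ± 5.16 without it in KO and WT macrophages, and was called lower in KO macrophages (log2 -1.53, adjusted p = 0.00994). In WT macrophages its log2 fold change of -0.77 missed the fold threshold, though not on equal total reads (-1.47), and the interaction of genotype and LPS for Slc7a4 was not called (adjusted p = 0.999).

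Among the light chains that bind Slc3a2, 3 of 5 tested genes rose in both genotypes and 1 fell. Slc7a11 (chr3:49892526-50443614, minus strand), the cystine-glutamate exchanger xCT, had 221, 281 and 253 normalized counts in LPS-treated KO and 253, 242 and 198 in LPS-treated WT macrophages, against 59.3, 75.3 and 52.3 in untreated KO and 24.2, 35.0 and 35.8 in untreated WT macrophages. LPS-treated and untreated libraries were fully apart, and within the untreated libraries every KO value was above every WT value. The log2 fold change with LPS was 2.01 ± 0.16 in KO (adjusted p = 6.63e-06) and 2.84 ± 0.19 in WT macrophages (adjusted p = 7.73e-07). Slc7a7 (chr14:54369442-54417780, minus strand), which encodes y+LAT1 and exchanges cationic for neutral amino acids, had 865, 864 and 874 (KO) and 1077, 1094 and 1231 (WT) with LPS, against 203, 204 and 200.5 (KO) and 354, 277 and 266 (WT) without it. Each of its 4 groups was apart from the other 3, with WT above KO in both treatments. It rose 4.26-fold in KO (adjusted p = 2.63e-08) and 3.81-fold in WT macrophages (adjusted p = 3.17e-07).

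Slc7a8 (chr14:54722209-54781946, minus strand), the LAT2 exchanger of neutral amino acids, was the most abundant light chain per kb. It had 7283, 6467 and 6325 (KO) and 6322, 6411 and 5901 (WT) normalized counts in LPS-treated KO and WT macrophages, against 2628, 2362 and 2484 (KO) and 2914, 2815 and 2503 (WT) in untreated ones, with no overlap between LPS-treated and untreated libraries. The log2 fold change was 1.42 in KO and 1.18 in WT macrophages (adjusted p = 3.67e-07 and 2.86e-07), but only 0.74 and 0.46 with libraries scaled to equal total reads, below the fold threshold. Slc7a6 (chr8:106168857-106198706, plus strand), which encodes y+LAT2, moved the other way and had 50.8, 75.8 and 53.1 (KO) and 80.2, 81.9 and 68.2 (WT) with LPS, against 171, 204 and 163 (KO) and 176, 174 and 154 (WT) without it. Its groups with and without LPS did not overlap, and it fell by 1.58 in KO and by 1.12 in WT macrophages on the log2 scale (adjusted p = 6.08e-05 and 4.45e-05). In WT macrophages its call was lost with upper quartile scaling (log2 -0.94) and with quantile normalization (-0.79). Slc7a5, the LAT1 carrier of leucine and other large neutral amino acids, averaged 262 ± 51.2 and 207 ± 27.3 with LPS against 260.1 ± 62.7 and 267 ± 30.8 without it, and was not called (log2 0.01 in KO and -0.37 in WT), but on equal total reads it had -0.67 in KO and -1.09 in WT macrophages and was called lower in WT. Together the 5 light chains came to 94.6 ± 4.97 and 99.2 ± 2.16 per 100 counts per kb of Slc3a2 in LPS-treated KO and WT macrophages, against 53.6 ± 2.04 and 61.7 ± 3.54 in untreated ones (SD, n = 3 each). Such ratios within a library do not change with a scaling factor for the whole library, while quantile normalization can change them.

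Slc3a2 itself (chr19:8706882-8723369, minus strand) had 6585, 6043 and 6399.9 (KO) and 6119, 5991 and 5734 (WT) normalized counts in LPS-treated KO and WT macrophages, against 4528, 4339 and 4421 (KO) and 4584, 4130.2 and 4130.1 (WT) in untreated ones. The groups with and without LPS were apart, with a log2 fold change of 0.52 in KO and 0.48 in WT macrophages (adjusted p = 5.70e-05 and 6.36e-05), under the 2-fold threshold, and the sign turned on equal total reads (-0.17 and -0.25) and with the planned quantile normalization (-0.37 and -0.39). Slc6a6, likewise not called, had a log2 fold change of 0.46 in KO and 0.67 in WT macrophages that turned to -0.23 and -0.06 on equal totals and to -0.48 and -0.29 with quantile normalization. The other heavy chain gene, Slc3a1, the rBAT partner of kidney and gut transporters, never exceeded 10.9 normalized counts in a library, and 26.5% of its exon length lies opposite exons of Prepl.

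**Figure D3:**
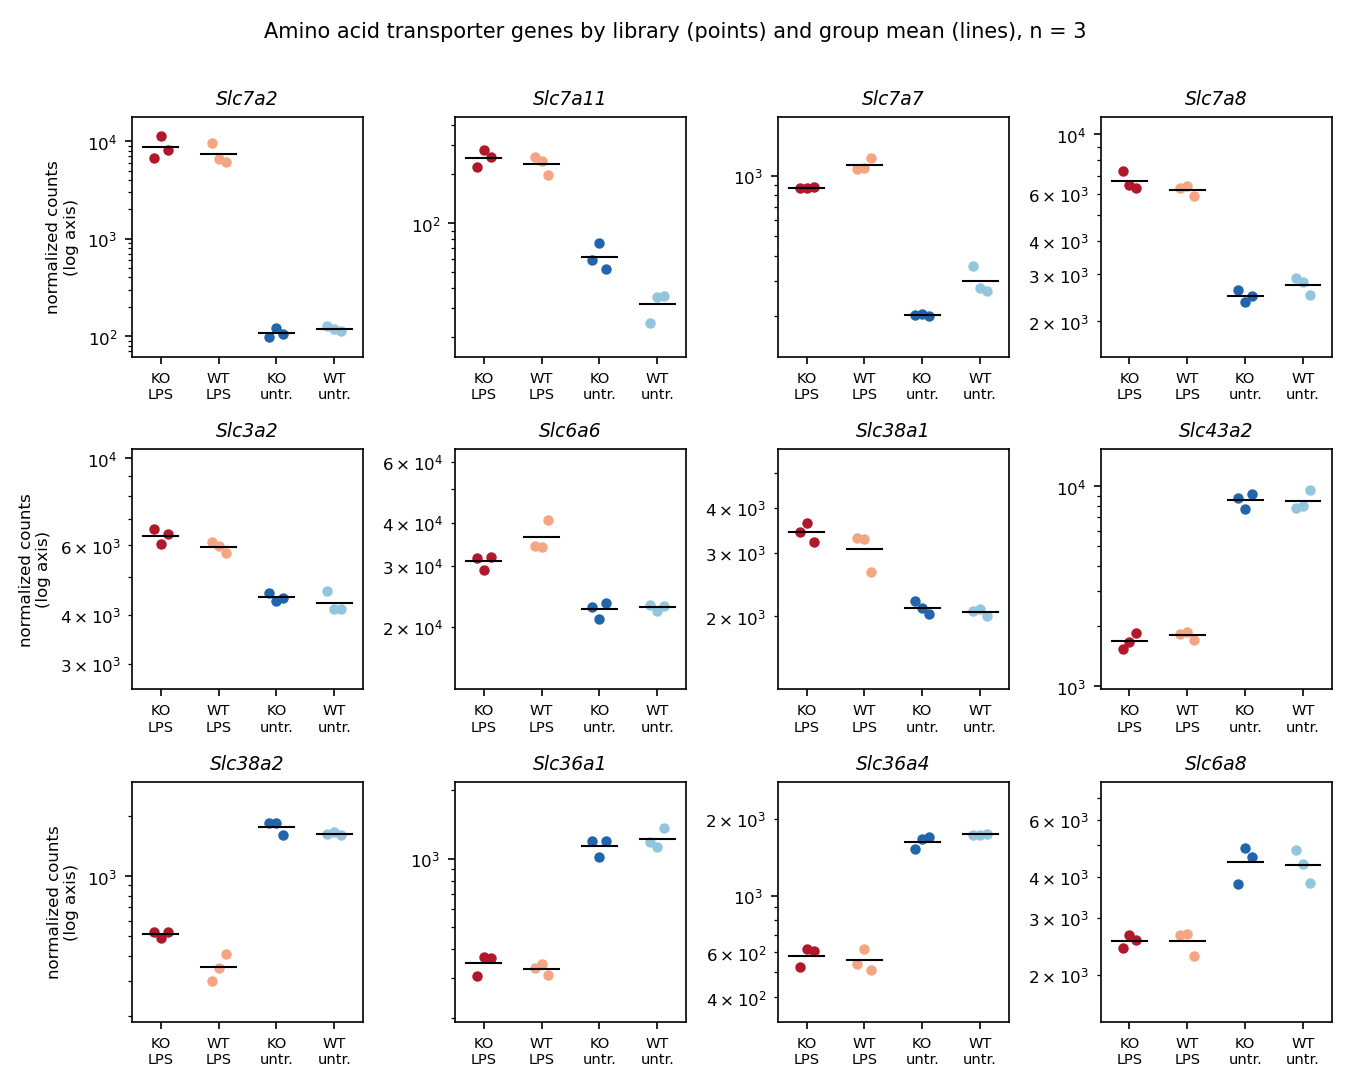
Normalized counts (vertical log axis, a separate range for each gene) of 12 amino acid transporter genes in each library (points) with group means (lines), for LPS-treated KO, LPS-treated WT, untreated KO and untreated WT macrophages from left to right (n = 3 each). LPS-treated libraries lie above untreated ones for Slc7a2, Slc7a11, Slc7a7, Slc7a8, Slc3a2, Slc6a6 and Slc38a1 and below them for the other 5 genes on the deposited size factors (the mean change of Slc3a2, Slc6a6 and, in WT, Slc38a1 turned on equal total reads), and the KO points lie below the WT points for Slc7a7 with and without LPS.

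Both tested Slc36 carriers were called lower. Slc36a1 (chr11:55204350-55236330, plus strand), the proton-coupled carrier PAT1 that exports small amino acids from the lysosome, had 306, 370.0 and 366 (KO) and 332, 343 and 307 (WT) normalized counts in LPS-treated KO and WT macrophages, against 1195, 1019 and 1199 (KO) and 1185, 1124 and 1361 (WT) in untreated ones. Slc36a4 (chr9:15709738-15743361, plus strand), the related PAT4, had 524, 615 and 604 (KO) and 540.4, 618 and 511 (WT) with LPS, against 1520.2, 1663 and 1704 (KO) and 1736, 1731 and 1746 (WT) without it. Both were lower in every LPS-treated library than in any untreated one, with log2 fold changes of -1.71 ± 0.10 in KO and -1.90 ± 0.09 in WT macrophages for Slc36a1, and -1.49 ± 0.08 and -1.65 ± 0.08 for Slc36a4 (limma adjusted p at most 8.41e-07). Slc38a7, a lysosomal exporter of glutamine and asparagine, and Slc38a9, the arginine-sensing carrier of the mTORC1 pathway, were lower by less than 2-fold, with log2 fold changes of -0.45 and -0.46 for Slc38a7 and -0.66 and -0.86 for Slc38a9 in KO and WT macrophages. Summed per kb, these 4 carriers came to 376 ± 19.4 and 375 ± 37.7 in LPS-treated KO and WT macrophages, against 765 ± 33.3 and 813 ± 15.9 in untreated ones.

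Slc43a2 (chr11:75531694-75577575, plus strand), the LAT4 carrier that lets branched-chain amino acids, phenylalanine and methionine cross without an ion gradient, showed, with Slc38a2, the largest falls among the tested carriers. It had 1539.7, 1653 and 1843 (KO) and 1825, 1859 and 1699.9 (WT) normalized counts in LPS-treated KO and WT macrophages, against 8790.1, 7740.0 and 9117 (KO) and 7771, 7979 and 9591 (WT) in untreated ones. All LPS-treated libraries were below all untreated ones and the genotypes overlapped at both times, for a fall of 5.09-fold in KO (adjusted p = 5.41e-08) and 4.69-fold in WT macrophages (adjusted p = 1.49e-08). The antisense model Gm45606 covers 9.18% of the Slc43a2 exon length and averaged 8.18 and 5.54 with LPS, against 160.2 and 125 without it in KO and WT macrophages. Whether the counting used strand is not given in the sources used here, so reads of the overlap cannot be told apart. Slc43a1, which encodes LAT3, never exceeded 5.99 normalized counts.

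Slc38a2 (chr15:96687392-96699730, minus strand), the sodium-coupled SNAT2 carrier of glutamine and alanine, had 526, 492 and 525 normalized counts in LPS-treated KO and 298, 347 and 408 in LPS-treated WT macrophages, against 1854, 1841 and 1604 in untreated KO and 1632, 1656 and 1615 in untreated WT macrophages. LPS-treated libraries were below untreated ones throughout, and among them KO was above WT without overlap. The log2 fold change was -1.78 ± 0.08 in KO (adjusted p = 1.14e-07) and -2.23 ± 0.10 in WT macrophages (adjusted p = 6.79e-08). Its neighbour on chromosome 15, Slc38a1, the SNAT1 carrier of much the same substrates, had log2 fold changes of 0.69 and 0.57, below the fold threshold, which became 0.01 and -0.15 on equal total reads and 0.04 and -0.05 with quantile normalization. Slc38a2 therefore made up 22.7 ± 1.68% and 18.4 ± 4.15% of the counts per kb of this pair in LPS-treated KO and WT macrophages, against 61.9 ± 1.17% and 60.7 ± 0.258% in untreated ones. The other members, Slc38a10 and Slc38a6, had log2 fold changes of -0.40 and -0.41 for Slc38a10 and -0.07 and -0.05 for Slc38a6 in KO and WT macrophages, and of -1.08 and -1.14 for Slc38a10 and -0.75 and -0.78 for Slc38a6 on equal total reads. Slc6a8, the creatine transporter, averaged 2548 ± 115 and 2535 ± 210.4 with LPS against 4434 ± 569.6 and 4342 ± 508 without it. Both it and Slc1a5, the sodium-dependent glutamine exchanger ASCT2, were lower by less than 2-fold (-0.79 and -0.77 for Slc6a8, -0.63 and -0.52 for Slc1a5). On equal total reads Slc6a8, Slc1a5, Slc38a7, Slc38a9, Slc38a10 and Slc7a6os were called lower in both genotypes as well, and Slc7a5 and Slc7a4 in WT macrophages.

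The remaining calls were in genes of few reads. Slc6a19, the B0AT1 carrier of neutral amino acids in gut and kidney, averaged 36.5 ± 1.28 and 25.8 ± 7.76 normalized counts in LPS-treated KO and WT macrophages against 8.54 ± 3.99 and 7.42 ± 3.03 in untreated ones, and was called higher in both (log2 2.07 and 1.70). In both genotypes Slc6a19 passed the filter only through the LPS-treated group, so these calls carry no weight beyond the counts. Slc6a17, a vesicular carrier of neutral amino acids in neurons, averaged 26.7 ± 6.47 and 20.8 ± 2.18 with LPS against 75.9 ± 12.4 and 45.1 ± 5.11 without it and was called lower in both (log2 -1.49 and -1.08). In WT macrophages that Slc6a17 call sat at the threshold and was lost without replicate 1 of the LPS-treated WT libraries (log2 -0.996) or replicate 3 of the untreated WT libraries (-0.99). Slc1a4, the ASCT1 carrier of alanine, serine and cysteine, averaged 29.2 ± 2.91 and 17.1 ± 1.84 with LPS against 34.8 ± 5.80 and 36.8 ± 2.93 without it. It was called lower in WT (log2 -1.06 ± 0.22, adjusted p = 0.00178) and not in KO macrophages (log2 -0.24 ± 0.22, adjusted p = 0.345), and the interaction was not called (log2 0.82, adjusted p = 0.999). Without replicate 2 of the LPS-treated WT libraries its WT call was lost as well (log2 -0.98).

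Like Slc6a19, others passed the filter only through 1 group, or did not pass it, and are given as reads. Slc6a4, the serotonin transporter, had 47 reads over the LPS-treated KO libraries against 1 over the untreated KO libraries, a ratio of 80.5 (95% counting interval 13.8 to 3246), and 31 against 2 in WT macrophages, a ratio of 30.2 (7.69 to 261). Slc6a12, the betaine and GABA carrier BGT1, had 42 reads against 3 in KO (interval of the ratio 7.66 to 121) and 23 against 0 in WT macrophages, at least 14.9-fold higher with the untreated group set at a floor of 3 reads. Slc7a15 had 0 reads in LPS-treated KO against 43 in untreated KO macrophages, at least 8.37-fold lower by the same floor over the group, and 4 against 74 in WT macrophages, 9.49-fold lower (3.55 to 35.7). These intervals and floors cover counting error only. With no filter, limma also called these genes where they had been left out, together with Slc36a3os in WT and Slc3a1 in KO macrophages, both of them without a library above 10.9 normalized counts. In edgeR the adjusted p of Slc36a3os was 0.222. Slc6a4 reached the filter in KO macrophages only, through the LPS-treated group, so its call there carries no weight beyond these reads. The other tested models, Slc1a2, a glutamate transporter of glia, and Slc7a6os, were not called, with log2 changes of 0.31 and 0.84 for Slc1a2 and -0.59 and -0.58 for Slc7a6os in KO and WT macrophages.

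The promoters of these genes were read for 3 short motifs, those of factors known to answer amino acid shortage, oxidative stress and LPS. The RefSeq table of promoters (build GRCm38.p6, 250 bases before to 50 after each start) holds 35 windows for 22 of the 31 tested genes, some genes having several starts. The C/EBP-ATF response element, bound by Atf4 when amino acids run short, was searched as TGATGNAA on both strands. It was found in 4 of these 35 windows, in the genes Slc7a11, Slc7a7 and Slc1a4, and in 3.97% of all 32851 windows. The Slc7a11 stretch (chr3:50443623-50443709, minus strand, -96 to -10 from the start) is shown because it holds 2 such matches, 1 on each strand, and the Slc1a4 stretch (chr11:20332704-20332747, minus strand, -34 to 9) because its single match covers the start itself. The looser kappaB-like motif, searched on both strands as GGG and CC with any 5 bases between them, was found in 21 of the 35 windows and in 50.8% of all windows. The Slc7a7 stretch (chr14:54417771-54417884, minus strand, -182 to -69) is shown because it holds 5 of these matches, some of them overlapping or on both strands. The antioxidant response element, searched as TGACNNNGC, was found in 5 of the 35 windows, in Slc36a1, Slc38a2, Slc7a1 and Slc7a6, and in 12.4% of all windows. Capitals mark the C/EBP-ATF matches in Slc7a11 and Slc1a4 and the kappaB-like matches in Slc7a7.
Slc7a11: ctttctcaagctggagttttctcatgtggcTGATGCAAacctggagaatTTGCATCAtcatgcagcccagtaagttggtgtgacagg
Slc1a4: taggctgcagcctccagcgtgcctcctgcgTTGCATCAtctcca
Slc7a7: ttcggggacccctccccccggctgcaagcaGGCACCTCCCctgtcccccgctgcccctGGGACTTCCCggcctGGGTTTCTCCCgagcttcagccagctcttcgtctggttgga
Read beside the values above, Slc7a11 and Slc7a7 rose with LPS in both genotypes and Slc1a4 did not, so genes with a C/EBP-ATF match did not all move one way. A match is a description of the letters and shows no binding.

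The second comparison asked whether loss of the Rasgef1b exons changed the carriers. By the call rule 0 of 30 tested genes were called between LPS-treated KO and WT macrophages, beside 0.232% of all genes, and 0 of 27 between untreated ones, beside 0.193% of all genes. At an unadjusted limma p under 0.05 there were 6 and 5 carriers, beside 1324 of 12504 genes with LPS and 1345 of 12461 without it. At an adjusted p under 0.05 without the fold threshold limma passed 0 carriers in either comparison, beside 0.816% of all genes with LPS and 0.538% without it. By that looser rule edgeR passed 2 in LPS-treated and 0 in untreated macrophages, and DESeq2 passed 3 and 2, beside 0.944% and 0.449% of all genes in edgeR and 1.69% and 2.62% in DESeq2. KO and WT libraries did not overlap for 7 of 30 carriers with LPS, beside 16.1% of all genes, and for 8 of 27 without it, beside 16.4%. In the main fits all tested carriers had an absolute log2 difference below 1 at both times.

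**Figure D4:**
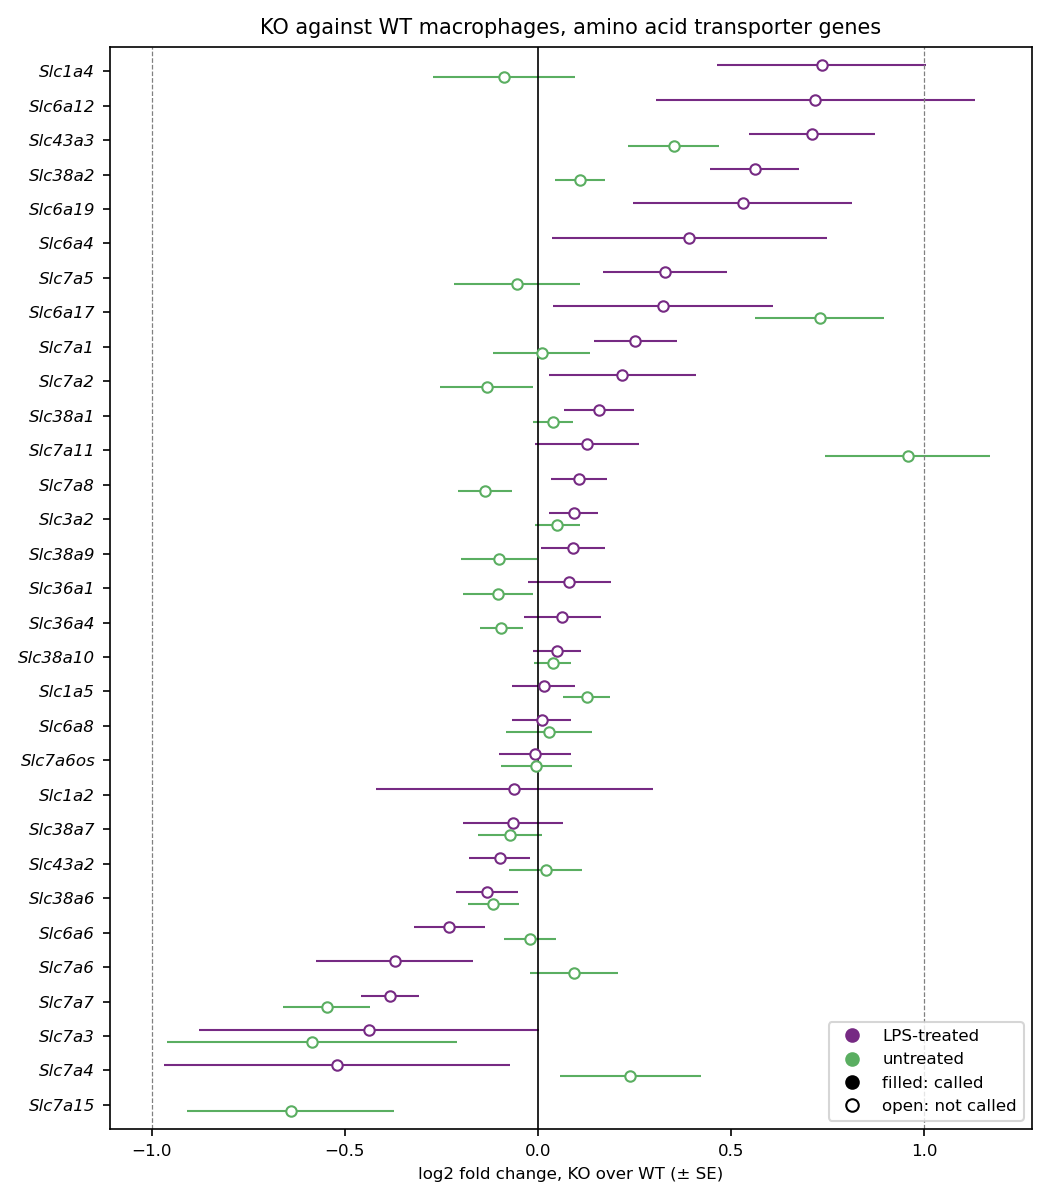
Log2 fold change of KO over WT macrophages (horizontal axis, ± SE, n = 3 per group) for each tested amino acid transporter gene, in LPS-treated (upper point of each pair) and untreated macrophages (lower point). Open points were not called, and dashed lines mark a fold change of 2. No point is filled, Slc7a7 lies left of 0 in both, and Slc7a11 in untreated macrophages comes closest to the 2-fold line.

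Slc7a7 was the carrier with the smallest limma adjusted p in both comparisons, while with LPS the DESeq2 adjusted p was smaller for Slc43a3 (0.00427) and Slc38a2 (0.00549). LPS-treated KO libraries lay between 864 and 874 normalized counts and LPS-treated WT libraries between 1077 and 1231, for a log2 difference of -0.38 ± 0.07 (limma adjusted p = 0.0501, edgeR 0.0361, DESeq2 0.00931). Untreated KO libraries lay between 200.5 and 204 and untreated WT libraries between 266 and 354, for -0.55 ± 0.11 (limma adjusted p = 0.0946, edgeR 0.0935, DESeq2 0.00500). The KO libraries were thus lower than the WT libraries in 3 of 3 at both times. The adjusted p for LPS-treated macrophages was 0.00931 to 0.213 over 20 alternative settings, and under 0.05 in 7 of them. For untreated macrophages the adjusted p was 0.00500 to 0.230 over 20 alternative settings, and under 0.05 in 4 of them. These settings count the main fit called by adjusted p alone. They also count a limma block that ties KO to WT libraries by replicate number, without a basis in the labels (adjusted p = 0.0442 in untreated macrophages). Oxa1l lies opposite 7.00% of the Slc7a7 exon length and averaged 633 and 564 in LPS-treated KO and WT macrophages and 905 and 882 in untreated ones. Slc7a7 made up 15.4 ± 1.04% and 20.5 ± 2.00% of the light chains per kb in LPS-treated KO and WT macrophages, and 9.11 ± 0.530% and 12.0 ± 1.12% in untreated ones.

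Slc7a11 had its higher values in untreated KO macrophages, with 59.3, 75.3 and 52.3 in KO against 24.2, 35.0 and 35.8 in WT macrophages, for a log2 difference of 0.96 ± 0.21 (limma adjusted p = 0.118). Over 19 alternative settings, counted as for Slc7a7, the log2 difference ran from 0.78 to 1.07 and the adjusted p from 0.0202 (DESeq2, log2 0.98) to 0.297. The adjusted p was under 0.05 in 2 of these settings. With LPS the difference was 0.13 ± 0.13 (adjusted p = 0.804), and the interaction of -0.83 ± 0.26 was not called (adjusted p = 0.997). Without replicate 2 of the untreated KO libraries, which carries the ribosomal RNA reads and has the highest Slc7a11 value of its group, the untreated difference was 0.81 (adjusted p = 0.244).

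Slc38a2 was higher in every LPS-treated KO than in every LPS-treated WT library, at 526, 492 and 525 against 298, 347 and 408, for a log2 difference of 0.56 ± 0.12 (limma adjusted p = 0.0614, edgeR 0.0423, DESeq2 0.00549). Its adjusted p was 0.00549 to 0.243 over 20 alternative settings, counted as for Slc7a7, and under 0.05 in 7 of them. Untreated macrophages gave 0.11 ± 0.06 (adjusted p = 0.614), and the interaction of 0.45 ± 0.14 was not called (adjusted p = 0.907). Slc43a3, known as a carrier of purine nucleobases and named after its values were seen, had 489, 349 and 299 in LPS-treated KO against 213, 246 and 223 in LPS-treated WT macrophages, and 403, 321 and 307 against 286, 277 and 241 in untreated ones. The KO libraries were higher than the WT libraries without overlap at both times, with log2 differences of 0.71 ± 0.16 (adjusted p = 0.101) and 0.35 ± 0.12 (adjusted p = 0.302). With LPS the adjusted p of Slc43a3 was 0.00427 to 0.334 over 20 alternative settings, and under 0.05 in 2 of them. Slc6a17 had a log2 difference in untreated macrophages of 0.73 ± 0.17 (adjusted p = 0.126) and Slc1a4 one in LPS-treated macrophages of 0.73 ± 0.27 (adjusted p = 0.356), with no overlap in either case.

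Among the most abundant carriers the log2 difference of KO over WT was -0.23 ± 0.09 with LPS and -0.02 ± 0.07 without it for Slc6a6, 0.09 ± 0.06 and 0.05 ± 0.06 for Slc3a2, and 0.11 ± 0.07 and -0.14 ± 0.07 for Slc7a8. For Slc7a2 it was 0.22 ± 0.19 and -0.13 ± 0.12, and for Slc43a2 -0.10 ± 0.08 and 0.02 ± 0.09. Among markers, Cd4 averaged 92.3 ± 7.75 and 159 ± 12.1 in LPS-treated KO and WT macrophages and 126 ± 18.7 and 216 ± 42.7 in untreated ones, while Cd3d was at 0 in all libraries and Cd3e, Cd8a and Trac had group means under 1. The summed T cell list of 5 genes ran from 83.5 to 99.4 in LPS-treated KO and from 151 to 175 in LPS-treated WT libraries, and from 106 to 142 and from 168 to 245 in untreated ones. The summed macrophage list of 8 genes ran from 273170.0 to 339137 in LPS-treated KO and from 339103 to 392543 in LPS-treated WT libraries. The summed neutrophil list of 7 genes ran from 386 to 1144 and from 293 to 637 with LPS, and from 227 to 521 and from 226 to 516 without it, in KO and WT libraries, while Ly6g was at or near 0. The summed neuron list of 2 genes ran from 11.8 to 15.7 and from 1.36 to 9.85 with LPS, and from 5.64 to 23.1 and from 4.15 to 7.17 without it. The part of these markers in the differences was not tested.

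The interaction asked whether the LPS response of a carrier differed between the genotypes. It was called for 0 of 28 tested carriers in limma over all 12 libraries, beside 0.00787% of all genes, that is 1 gene. In edgeR and DESeq2 it was likewise called for 0 carriers, beside 1 and 23 genes. At an unadjusted limma p under 0.05 there were 4 carriers, beside 537 of 12711 genes. The LPS responses of the 2 genotypes thus stand side by side as separate values, and the genes called in 1 genotype alone were not shown to respond differently.

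Genes around the carriers were followed in lists of amino acid pathways, in the same fits. With LPS 33.8% of all genes were called in KO and 33.9% in WT macrophages, 17.3% and 17.1% higher, 16.6% and 16.9% lower. The shares called were 44.4% and 40% for arginine, 38.5% and 46.2% for glutathione, and 42.9% and 45% for the amino acid response. On equal total reads 1447 of 12732 genes were higher and 4621 lower in KO, and 1379 of 12656 and 4784 in WT. In the list of arginine use and synthesis, 4 of 9 tested genes were called higher in KO and 4 of 10 in WT macrophages and none lower. They were Nos2 (log2 10.49 in KO and 11.47 in WT), Ass1, the enzyme that remakes arginine from citrulline (3.47 and 3.19), Odc1, the first enzyme of polyamine synthesis (1.88 and 1.96), and the arginase Arg2 (2.21 and 1.87), named after its values were seen to complete the 4. In the list of glutathione synthesis and cystine use, 2 of 13 genes were higher and 3 lower in KO, and 3 of 13 were higher and 3 lower in WT macrophages, a split that became 1 higher with 6 and 7 lower on equal total reads. Gclc, the catalytic subunit of the rate-limiting enzyme of glutathione synthesis, fell by 2.08 in KO and by 2.00 in WT macrophages on the log2 scale, Chac1, which breaks glutathione down, fell by 1.19 and by 2.30, and Keap1, the inhibitor of Nrf2, rose (log2 1.93 and 1.92). In the list of the amino acid response, whose 26 gene models include 2 with the symbol Ddit3, 2 of 21 tested were higher and 7 lower in KO and 2 of 20 higher and 7 lower in WT macrophages. The stress protein gene Nupr1 rose (log2 4.79 and 5.11), and Trib3 and Gdf15 fell (log2 -1.83 and -2.92 for Trib3, -2.42 and -2.87 for Gdf15). Atf4 itself (0.12 and -0.10) and its target Asns, the asparagine synthetase gene (0.30 and -0.02), did not pass the test and were named after their values were seen.

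The list of lysosomal amino acid sensing to mTORC1 had 2 of 31 genes higher and 9 lower in KO, and 2 higher and 10 lower in WT macrophages, and on equal total reads 1 higher and 16 lower in each. The lower ones included Sesn1, a leucine-sensing sestrin (log2 -5.40 in KO and -5.49 in WT), Flcn, the folliculin that acts on the Rag GTPases (-2.48 and -2.57), and the Rag GTPase gene Rragd (-2.09 and -2.52). In all 35.5% of the list was called in KO and 38.7% in WT macrophages, beside 33.8% and 33.9% of all genes. The list median was -0.35 in KO and -0.28 in WT macrophages. Among 20 cytosolic aminoacyl-tRNA synthetase genes, 4 (20.0%) were called higher in each genotype and none lower on the deposited size factors, beside 17.3% of all genes called higher in KO and 17.1% in WT macrophages, with Wars the highest (6.57-fold in KO and 6.06-fold in WT), before Farsa (2.27- and 2.49-fold) and Rars (2.29- and 2.30-fold). On equal total reads these became 1 higher and 4 lower in KO and 1 higher and 6 lower in WT macrophages. Of 11 genes of glutamine and glutamate metabolism, 0 were called in KO and 1 in WT macrophages by limma (edgeR 0 and 1, DESeq2 1 and 1). That WT gene was Ppat, the first enzyme of purine synthesis, with log2 values of -0.87 in KO and -1.05 in WT macrophages. The list had 8 genes past an adjusted p of 0.05 alone in each genotype, 3 of them higher and 5 lower, and on equal total reads 5 of its genes were called lower in each. Between KO and WT macrophages 0 genes of these lists were called by limma with the full call rule at either time, nor by edgeR or DESeq2. At an adjusted p under 0.05 alone, limma passed 1 gene in each of 3 lists with LPS, beside 0.816% of all genes. These were 5% of the tested amino acid response list and 11.1% of the arginine list, both higher in KO, and 8.33% of the glutathione list, lower in KO. Without LPS it passed 0 genes of these lists, beside 0.538% of all genes. At an unadjusted limma p under 0.05 the amino acid response list had 7 of 20 tested genes with LPS and 2 of 21 without it. The arginine list had 3 of 9 at both times, and the glutathione list 2 of 12 and 4 of 13. The sensing list had 3 of 30 and 2 of 31, the synthetases 1 of 20 at both times, and the glutamine list 2 of 11 and 1 of 11. Of all genes, 1324 of 12504 passed that p with LPS and 1345 of 12461 without it. Samtor of the sensing list had no match in the table. The lists were put together with earlier results of these data known.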

How the data were processed

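RNA was measured in 12 libraries of mouse bone-marrow-derived macrophages by paired-end poly(A) sequencing, 3 for each of 4 groups. Per the labels and the study's methods, the authors used bcl2fastq 2.17, Trimmomatic 0.39, STAR 2.7.4a on GRCm38, featureCounts of Subread 2.0.1 and DESeq2 1.32.0 in R 4.1.2. The values the authors deposited are a signal per gene, namely read counts divided by a DESeq2 size factor for each library. Whole reads were recovered from them, and 100% of values came out whole within 1e-06 reads.

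The main test was limma 3.58.1 in R 4.3.3, with a variance trend, on log2(normalized count + 1), so that fold changes of low genes are understated. Genes needed a mean of 10 in the libraries compared, and p-values were adjusted by Benjamini-Hochberg over all genes tested. Calls rested on an adjusted p below 0.05 with a log2 change of 1 or more in either direction, and on the adjusted p alone for the interaction. As alternatives the recovered reads were tested with edgeR 4.0.16 (quasi-likelihood) and DESeq2 1.42.0, and other filters, pseudocounts, scalings, variance models and left-out libraries were tried. The fits were checked on simulated counts. Intervals of read ratios are 95% exact and cover counting error only.

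Named in the text were called carriers, carriers with a group mean of at least 500, all tested Slc3 and Slc7 genes, and up to 3 genes of each list by their change in WT macrophages. Outside this rule Slc43a3, Arg2, Atf4 and Asns were named after their values were seen. The carriers and lists were chosen with earlier results of these data known. No label pairs untreated and LPS-treated libraries, and the study treated the samples as unpaired. Within a genotype, same-numbered libraries deviated together from their group means (correlation across genes 0.29, 0.28 and 0.17 in KO and 0.33, 0.19 and 0.24 in WT). Libraries of unlike number within a genotype had correlations of -0.24 to 0.01. KO and WT libraries of the same treatment had -0.28 to 0.27. Whether the replicate numbers mark pairs was not tested. Coordinates are those of GRCm38, and promoter windows those of RefSeq on GRCm38.p6. Whether counting used strand is not given in the sources used here.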

Additional observations from a re-analysis of the deposited data

How the results depend on the processing

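The carriers called in the LPS comparisons numbered 13 in KO and 12 in WT macrophages, and under the planned filters, pseudocounts, scalings and tools other than a p threshold alone they stayed within 1.5 times of that. Without the fold threshold they came to 22 and 24. With libraries scaled to equal total reads, a choice made after seeing the data, they came to 18 and 19. Leaving out each library gave 12 to 14 in KO and 11 to 13 in WT macrophages. Between KO and WT macrophages and in the interaction the count was 0 in every fit with the full call rule, leave-one-out fits included. At an adjusted p alone, also chosen after seeing the data, edgeR passed 2 with LPS, and DESeq2 passed 3 with LPS and 2 without it. With a replicate block the counts were 13 in KO and 12 in WT macrophages and 0 in the other comparisons, so the block changed no carrier's call. In the LPS comparisons and the interaction the block tied same-numbered libraries within a genotype. Between KO and WT macrophages it tied KO to WT libraries by number only, a match that no label gives. No carrier that was called reversed.

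Single calls that were lost lay near the threshold or moved with the scaling. In WT macrophages Slc6a17, Slc7a6 and Slc1a4 fell below a fold of 2 with upper quartile scaling (log2 -0.91, -0.94 and -0.89). The same 3 genes did so with quantile normalization (log2 -0.96, -0.79 and -0.99). Slc7a8 had log2 0.65 in KO and 0.39 in WT macrophages with quantile normalization, where Slc6a8 was called lower at -1.53 and -1.50. Slc1a2 passed at log2 1.03 without replicate 2 of the LPS-treated WT libraries. Over all genes, calls between untreated KO and WT macrophages numbered 24, but 50 in DESeq2, 44 with the block, 42 with no filter, 11 with a mean of at least 50 and 2 without a variance trend, and 4 to 26 with a library left out. With LPS they numbered 29, but 44 in DESeq2, 5 without a trend, and 11 to 42 with a library left out. The interaction had 1 gene, but 23 in DESeq2 and 6 with the block. The cause was not tested. The full call rule cannot call a difference under a fold of 2, and at an adjusted p alone limma passed 0 carriers between genotypes. With 3 libraries per group, KO and WT libraries did not overlap for 7 of 30 carriers with LPS and 8 of 27 without it. The shares of all genes were 16.1% and 16.4%. Genes of a few reads rest on counting error.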

Other observations

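In the list of tryptophan and branched-chain amino acid breakdown, 4 of 8 tested genes were called higher with LPS in each genotype and none lower. Only 6 genes of this list reached a mean of 10 over the untreated KO and WT libraries. Some of the 8 thus passed the filter only through the LPS-treated group, and any call among these carries no weight beyond the counts. Of all genes 17.3% were called higher in KO and 17.1% in WT macrophages. On equal total reads the list had 3 higher and 2 lower in KO and 2 higher and 3 lower in WT macrophages. Ido2, which opens the tryptophan ring, had log2 changes of 4.66 in KO and 5.15 in WT macrophages, Kynu, an enzyme further down that pathway, 3.57 and 2.76, and Kmo 2.02 and 1.40. In the list of other carriers of amino acids and peptides, 4 of 17 were higher and 3 lower in KO, and 4 higher and 5 lower in WT macrophages. That is 41.2% and 52.9% called, beside 33.8% and 33.9% of all genes. On equal total reads the split became 3 higher with 9 and 10 lower. Slc25a22, the mitochondrial glutamate carrier, rose with LPS (log2 3.24 and 2.92), as did Slc15a3, an endolysosomal peptide carrier (2.29 and 2.25), while Ctns, the lysosomal cystine exporter, fell by 2.37 in KO and by 2.59 in WT macrophages on the log2 scale. Between KO and WT macrophages 0 genes of these lists were called by limma, edgeR or DESeq2 with the full call rule. At an adjusted p under 0.05 alone, limma passed 1 of 17 other carriers with LPS (5.88%, higher in KO), beside 0.816% of all genes. It passed 0 other carriers without LPS and 0 breakdown genes at either time. At an unadjusted limma p under 0.05 there were 3 other carriers and 1 breakdown gene with LPS, and 1 and 0 without it. Of all genes, 1324 of 12504 passed that p with LPS and 1345 of 12461 without it.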
